A study of Mus musculus with 12 samples.

Results

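The glucocorticoid-responsive genes described here are 10 listed genes: the glucocorticoid receptor itself (Nr3c1) and 9 genes known to respond to it, Fkbp5, Tsc22d3, Klf9, Sgk1, Errfi1, Ddit4, Pik3ip1, Mt1 and Mt2. They were chosen by name from the 21853 genes of the deposited expression table. All 10 passed the filter on low values and were tested among 10994 genes. The list was drawn up as a check on stress from dosing, because gavage is stated for the irradiated vehicle group and not for the controls. RNA was sequenced from whole bone marrow cells of B6 mice in 4 groups of 3 libraries, 12 in all, with marrow taken 14 days after irradiation. Controls were not irradiated, and no dosing is given for them. The TBI group received 5 Gy of total body gamma irradiation at 0.66 Gy per minute and then its vehicle, olive oil, in gavages of 100 µL. TBI+DEIX mice were irradiated and treated by mouth with DEIX at 25 mg per kg of body weight, once per day for 14 days. DEIX mice received DEIX without irradiation. Irradiation and vehicle gavage therefore cannot be told apart in TBI against control, nor can DEIX and its dosing in DEIX against control. Of the comparisons between 2 groups made here, only TBI+DEIX against TBI sets groups dosed by mouth side by side. The labels do not say that the libraries of a group came from separate mice, so the p-values measure only the spread between these libraries, which may be technical.

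Glucocorticoids are adrenal steroids whose level in blood follows a daily rhythm and climbs with stress. They bind the glucocorticoid receptor, which leaves a chaperone complex in the cytoplasm, enters the nucleus and switches on genes at pairs of short sites called glucocorticoid response elements. In bone marrow, glucocorticoids are known to deplete developing B cells and to mobilise or prolong the life of neutrophils.

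Promoter sequence was taken from the RefSeq table for GRCm38.p6, as 17 windows of the 250 bases before a start site for 9 of the 10 genes. Nr3c1, the receptor gene, was not searched. The full glucocorticoid response element, AGAACA and TGTTCT with any 3 bases between them, was searched on both strands, with its core ACANNNTGT, 2 forms of the metal response element (TGCGCNC and TGCACNC) and a forkhead site (GTAAACA). This element is a palindrome and holds the core within it. It occurred in 3 of 32851 windows of all genes (0.0091%), and 1 of the 3 belonged to Sgk1. The others belonged to Acnat2 and Gm35041. The core alone occurred in 5.84% of all windows, TGCGCNC in 12.5%, TGCACNC in 10.4% and GTAAACA in 3.17%. Windows are shown for Sgk1, which carries the full element, for Fkbp5 and Klf9, whose levels moved together, and for the neighbouring metallothionein genes Mt2 and Mt1. Each is written 5′ to 3′ on the strand of the gene, and capitals mark a match to the full element, to a metal response element or to the forkhead site.
Sgk1: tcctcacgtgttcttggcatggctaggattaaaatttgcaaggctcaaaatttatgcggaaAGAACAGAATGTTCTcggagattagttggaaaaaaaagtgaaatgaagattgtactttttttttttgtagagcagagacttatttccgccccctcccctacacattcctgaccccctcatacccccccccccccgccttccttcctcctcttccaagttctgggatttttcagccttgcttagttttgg
Fkbp5: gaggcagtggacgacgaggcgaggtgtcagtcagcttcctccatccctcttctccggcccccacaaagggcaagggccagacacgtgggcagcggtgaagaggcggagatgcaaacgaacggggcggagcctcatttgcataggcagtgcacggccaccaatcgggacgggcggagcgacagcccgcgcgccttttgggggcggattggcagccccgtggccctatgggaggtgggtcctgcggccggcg
Klf9: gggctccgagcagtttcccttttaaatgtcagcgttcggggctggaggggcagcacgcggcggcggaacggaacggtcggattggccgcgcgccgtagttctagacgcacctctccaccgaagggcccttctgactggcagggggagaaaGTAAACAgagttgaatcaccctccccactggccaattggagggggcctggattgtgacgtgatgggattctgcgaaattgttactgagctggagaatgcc
Mt2: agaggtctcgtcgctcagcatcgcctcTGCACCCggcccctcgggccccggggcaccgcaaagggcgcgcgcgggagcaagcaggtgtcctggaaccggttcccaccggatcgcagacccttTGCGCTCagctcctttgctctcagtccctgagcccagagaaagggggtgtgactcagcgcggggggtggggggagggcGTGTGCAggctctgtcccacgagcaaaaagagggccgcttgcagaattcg
Mt1: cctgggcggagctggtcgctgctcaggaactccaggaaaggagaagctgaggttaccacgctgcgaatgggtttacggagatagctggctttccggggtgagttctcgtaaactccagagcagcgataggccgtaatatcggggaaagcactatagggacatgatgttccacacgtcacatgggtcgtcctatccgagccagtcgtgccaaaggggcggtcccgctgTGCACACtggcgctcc

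The Sgk1 window is chr10:21993640-21993889 on the plus strand, 1 of 6 windows for that gene, and its match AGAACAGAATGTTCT begins 189 bases before the start site. The Fkbp5 window (chr17:28486150-28486399, minus strand) held none of the searched letters. The Klf9 window (chr19:23140976-23141225, plus strand) held the forkhead letters 100 bases before its start site. Mt2 (chr8:94172368-94172617, plus strand) had 3 matches to a metal response element, the last of them on the opposite strand. Mt1 (chr8:94178839-94179081, plus strand, shown up to its first annotated exon) had 1 such match and 1 core element, ACATGATGT, which is left in lower case. The Mt2 and Mt1 genes lie 5513 bases apart. A match is a description of letters, not a bound site, and no binding was measured here.

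Values are FPKM as deposited by the authors, fragment numbers corrected for the length of the transcript and scaled between libraries, so levels can be compared between genes per length of transcript. Summed FPKM per library ranged from 4.937e+05 to 8.488e+05, while upper quartiles lay between 13.06 and 13.83. Size factors by median of ratios were close to even, at 0.984 to 1.012. Which scaling the authors applied between libraries was not tested. The table holds no counts and the read depth of each library is unknown, so no counting interval can be given. Low values stepped in whole reads, and by these steps 1 read was worth 1.51 and 1.90 times as much FPKM in TBI+DEIX replicates 2 and 3 as in control replicate 1. The step could not be settled for TBI+DEIX replicate 1 and DEIX replicate 1. Between 10359 and 10832 genes per library were at 1 FPKM or more. TBI+DEIX replicate 1 stood apart from the other libraries: it lay at 53.3 on the first principal component, where the other 11 ranged from -33.2 to 21.5, and its B lineage markers summed to 9.92 FPKM against 99.7 and 240.1 in the other TBI+DEIX libraries. Where a TBI+DEIX difference described below moved by over 1.5 times without it, that value is given too. Differences below are on the log2(FPKM + 1) scale, which understates changes of low genes. They come from limma with Benjamini-Hochberg adjustment over all 10994 genes, and a gene is called at an adjusted p under 0.05. In these bulk samples, fewer cells of a type and less RNA per cell cannot be told apart.

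Of the 10 genes, Fkbp5 was called in the most comparisons, 3 of 6. It rose in DEIX and in TBI+DEIX marrow and lay above every control in all 9 treated libraries. The stress and glucocorticoid targets Klf9, Ddit4 and Tsc22d3 also lay above every control in all 3 DEIX libraries but did not pass the threshold in the main fit of all 12 libraries. Mt1 and Errfi1 rose in TBI+DEIX marrow. The receptor gene Nr3c1, Pik3ip1, Sgk1 and Mt2 were not called in any comparison of the main fit either. The plot of FPKM per library shows the values gene by gene.

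**Figure D1:**
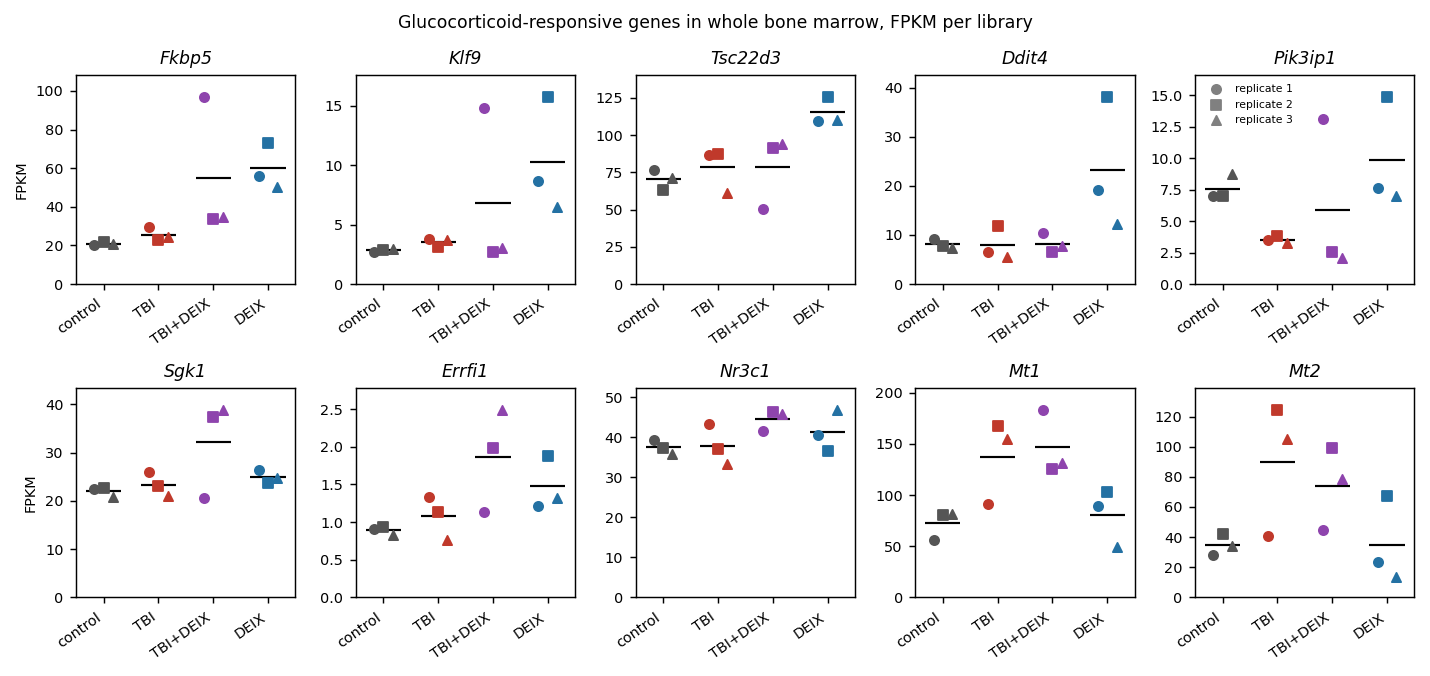
FPKM of each of the 10 genes (vertical axis, starting at 0, with its own scale per gene) in the 12 libraries by group (horizontal axis), where symbols give the replicate number and horizontal lines the group mean. Fkbp5 lies above the controls in all 9 treated libraries, and TBI+DEIX replicate 1 is the highest or lowest library of its group for every gene.

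Nr3c1 on chromosome 18 encodes the glucocorticoid receptor. It was at 39.4, 37.2 and 35.8 FPKM in controls, 43.2, 37.1 and 33.4 in TBI, 41.6, 46.2 and 45.7 in TBI+DEIX, and 40.6, 36.6 and 46.7 in DEIX. The TBI+DEIX libraries lay just above every control, and the other treated groups overlapped with control. The log2 difference was 0.24 for TBI+DEIX (SE 0.12, adjusted p = 0.138) and 0.13 for DEIX (adjusted p = 0.524), with 95% intervals of -0.01 to 0.50 and -0.12 to 0.39.

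Fkbp5 (chromosome 17, 28399094 to 28517527, minus strand) encodes a cochaperone that lowers the affinity of the receptor for hormone and so closes a feedback loop. Its control values were 20.0, 21.5 and 20.9 FPKM. TBI libraries held 29.5, 23.0 and 24.4, TBI+DEIX libraries 96.9, 33.5 and 34.8, and DEIX libraries 56.0, 73.2 and 50.4. Every treated library was above every control, and every DEIX library was above every TBI library. Controls averaged 20.8 ± 0.755 FPKM and TBI 25.6 ± 3.40, whereas TBI+DEIX averaged 55.1 ± 36.2 and DEIX 59.8 ± 11.9 (SD, n = 3 each). Fkbp5 rose by 1.46 in DEIX (SE 0.32, 95% interval 0.75 to 2.17, adjusted p = 0.0258). In TBI+DEIX it rose by 1.18 (SE 0.32, interval 0.47 to 1.89, adjusted p = 0.0189). Without TBI+DEIX replicate 1, its highest library, the difference was 0.69 (adjusted p = 0.00438). For TBI the difference was 0.28 (adjusted p = 0.699), with an interval of -0.43 to 0.99, and 0.18 without TBI replicate 1 (adjusted p = 0.884). Over the mean of the 3 treated groups Fkbp5 was 0.97 above control (adjusted p = 0.0257).

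Klf9 (chromosome 19, 23141226 to 23168134, plus strand) encodes a zinc finger repressor that is a direct receptor target in many tissues. In controls it was at 2.72, 2.86 and 2.96 FPKM and in TBI at 3.79, 3.10 and 3.66. The TBI+DEIX libraries were split, with 14.8 in replicate 1 against 2.73 and 3.01 in the others. DEIX libraries held 8.70, 15.7 and 6.48, between 2.28 and 5.53 times the control mean. All 3 DEIX libraries thus lay above all 6 control and TBI libraries, while TBI+DEIX spanned both ranges. In TBI+DEIX the log2 difference was 0.69 (adjusted p = 0.289), and 0.01 without replicate 1 (adjusted p = 0.984). The log2 difference for DEIX was 1.47 (SE 0.46, interval 0.45 to 2.49), which missed the threshold (adjusted p = 0.0791). Without TBI+DEIX replicate 1, whose removal leaves the estimate as it was and narrows the shared spread, its adjusted p was 0.00281.

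Tsc22d3 (X chromosome, 140539528 to 140600659, minus strand) encodes GILZ, a leucine zipper protein that carries part of the anti-inflammatory action of glucocorticoids. It was the most abundant of the 8 genes outside the metallothioneins in control marrow, at 76.8, 63.4 and 71.5 FPKM. TBI libraries held 86.9, 87.0 and 61.1, and TBI+DEIX libraries 50.1, 91.3 and 93.9, on both sides of the control range. The TBI+DEIX difference was 0.10 (adjusted p = 0.764), 0.39 without replicate 1 (adjusted p = 0.0615) and -0.03 and -0.05 without replicate 2 or 3 (adjusted p = 0.93 and 0.883). DEIX libraries held 109.5, 125.6 and 110.5, above every library of the other groups. The difference for DEIX was 0.70 (SE 0.22, interval 0.21 to 1.19, adjusted p = 0.0806), and without TBI+DEIX replicate 1 the adjusted p was 0.00662. TBI+DEIX replicate 1 had the highest Fkbp5 and the lowest Tsc22d3 of all 12 libraries. Its ratio of Fkbp5 to Tsc22d3 was 1.93, against 0.261 to 0.34 in controls and 0.456 to 0.583 in DEIX.

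Ddit4 (chromosome 10, 59949669 to 59951834, minus strand) encodes REDD1, an inhibitor of mTORC1 signalling induced by glucocorticoids, hypoxia and DNA damage. Controls held 9.15, 7.84 and 7.31 FPKM, TBI 6.59, 11.8 and 5.52, TBI+DEIX 10.4, 6.44 and 7.75, and DEIX 19.2, 38.1 and 12.2. Only the DEIX group lay apart from control, with a difference of 1.27 (SE 0.35, interval 0.49 to 2.05) and an adjusted p of 0.0546. Leaving out TBI+DEIX replicate 1 gave an adjusted p of 0.0269. Pik3ip1 (chromosome 11, 3330401 to 3342971, plus strand) encodes a transmembrane inhibitor of phosphoinositide 3-kinase. Its values were 6.96, 6.96 and 8.70 in controls and 3.47, 3.80 and 3.28 in TBI, between 0.435 and 0.504 times the control mean in the TBI libraries. TBI+DEIX again divided, at 13.1 in replicate 1 and 2.54 and 2.03 in the others, and DEIX held 7.64, 14.9 and 6.99. The TBI difference was -0.91 (SE 0.47, adjusted p = 0.342), and the TBI+DEIX difference -0.67 (adjusted p = 0.307). With TBI+DEIX replicate 1 left out, Pik3ip1 fell by 0.91 in TBI (adjusted p = 0.0215) and by 1.38 in TBI+DEIX (adjusted p = 0.00166). Without replicate 2 or 3 the TBI+DEIX difference was -0.38 and -0.27 (adjusted p = 0.604 and 0.701).

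Sgk1 (chromosome 10, 21882184 to 21999903, plus strand) encodes a kinase of ion transport and cell survival that is a textbook target of the glucocorticoid and mineralocorticoid receptors. It was at 22.5, 22.6 and 20.8 FPKM in controls, 25.9, 23.0 and 20.9 in TBI, 20.6, 37.3 and 38.8 in TBI+DEIX, and 26.3, 23.6 and 24.6 in DEIX. The DEIX libraries lay a little above control, by 0.17 on the log2 scale (adjusted p = 0.633). In TBI+DEIX, replicates 2 and 3 were 1.70 and 1.77 times the control mean and replicate 1 was below every control. With all libraries the TBI+DEIX difference from control was 0.48 (adjusted p = 0.0827). Without replicate 1 Sgk1 rose by 0.77 against control (SE 0.10, adjusted p = 0.000362) and by 0.69 against TBI (adjusted p = 0.00346). Without replicate 2 or 3 its difference from control was 0.35 and 0.33 (adjusted p = 0.22 and 0.24), and that from TBI 0.27 and 0.25 (adjusted p = 0.42 and 0.491).

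Errfi1 (chromosome 4, 150853919 to 150868892, plus strand) encodes an inhibitor of the EGF receptor family. It was the lowest of the 10 genes and reached 1 FPKM in 8 of 12 libraries. Controls held 0.908, 0.940 and 0.824 FPKM, TBI 1.34, 1.13 and 0.757, TBI+DEIX 1.13, 1.98 and 2.49, and DEIX 1.22, 1.88 and 1.32. Every library given DEIX was above every control. Errfi1 rose by 0.57 in TBI+DEIX (SE 0.18, interval 0.17 to 0.97, adjusted p = 0.0358), or by 0.77 without TBI+DEIX replicate 1 (adjusted p = 0.00306), and was 0.38 above control in DEIX (adjusted p = 0.227). The TBI+DEIX difference against TBI was 0.45 (adjusted p = 0.143), 0.65 without TBI+DEIX replicate 1 (adjusted p = 0.0157) and 0.29 without replicate 3 (adjusted p = 0.378).

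Mt1 (chromosome 8, 94179082 to 94180327, plus strand) and Mt2 (94172664 to 94173568, same strand) encode metallothioneins, small cysteine-rich proteins that buffer zinc and copper and are induced by metals, oxidative stress and glucocorticoids. Mt1 was at 56.5, 80.4 and 81.9 FPKM in controls, 90.9, 167.2 and 154.8 in TBI, 183.0, 125.2 and 131.9 in TBI+DEIX, and 89.7, 102.8 and 48.8 in DEIX. All 6 irradiated libraries lay above every control, and the DEIX libraries spanned the control range. Mt1 rose in TBI+DEIX by 1.00 (SE 0.30, interval 0.33 to 1.66, adjusted p = 0.0295) and was 0.88 above control in TBI (SE 0.30, adjusted p = 0.151). Leaving out TBI+DEIX replicate 1 brought the TBI+DEIX difference to 0.83 and ended the call (adjusted p = 0.0644). Mt2 was at 28.0, 41.9 and 33.9 in controls, 40.5, 124.2 and 104.9 in TBI, 44.8, 99.0 and 78.8 in TBI+DEIX, and 23.6, 67.2 and 13.4 in DEIX. Its differences were 1.22 in TBI (adjusted p = 0.267) and 1.02 in TBI+DEIX (adjusted p = 0.18). The ratio of Mt2 to Mt1 ranged from 0.245 to 0.79 over the treated libraries and from 0.415 to 0.521 over the controls.

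**Figure D2:**
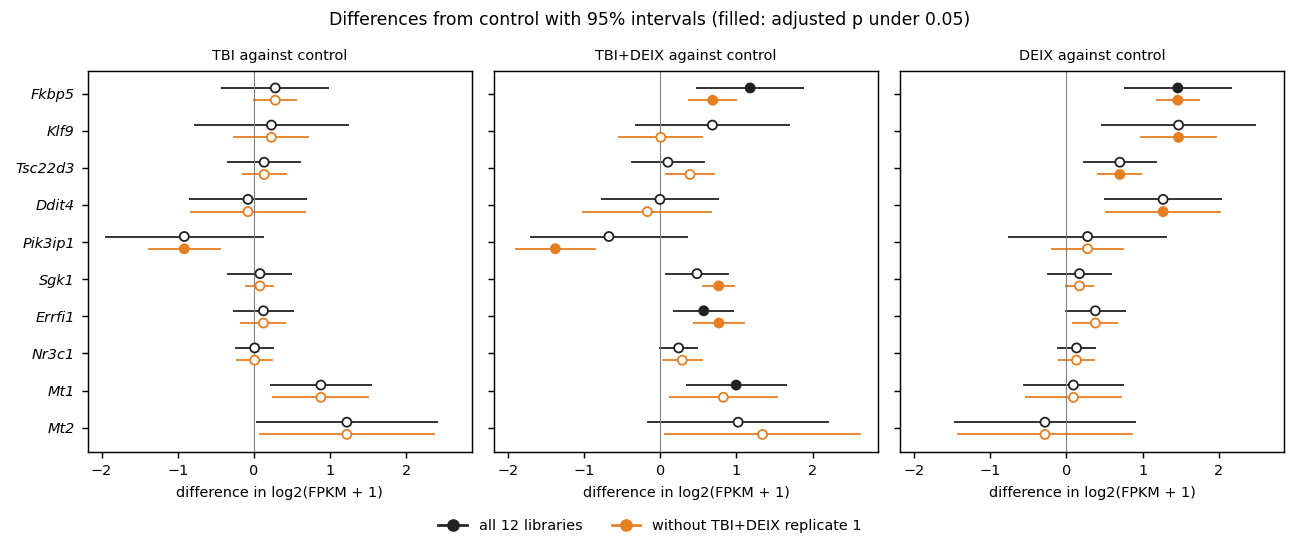
Difference of each gene from control in log2(FPKM + 1) (horizontal axis) for the 3 treated groups, with 95% intervals, from all 12 libraries (black) and without TBI+DEIX replicate 1 (orange), where filled points have an adjusted p under 0.05. In DEIX the estimates are the same in both fits and the orange intervals are narrower for Fkbp5, Klf9 and Tsc22d3. In TBI+DEIX the estimates shift, by the most for Pik3ip1 (-0.67 to -1.38) and Klf9 (0.69 to 0.01) and by the least for Nr3c1 (0.24 to 0.29).

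Counted per comparison, in TBI against control no member was called, where 3.99% of all tested genes were (limma). Mt1 and Mt2 had an unadjusted p under 0.05 there, as had 18.1% of all genes. In that comparison 3 members (Fkbp5, Klf9 and Mt1) lay wholly above control and 1 (Pik3ip1) wholly below, where 22.0% of all genes lay wholly above and 16.3% wholly below. The median difference of the 10 genes was 0.13, beside 0.05 over all genes. In DEIX against control 1 member was called, higher, where 7.24% of all genes were called and 4.52% called higher. There 6 members, namely Fkbp5, Tsc22d3, Klf9, Sgk1, Ddit4 and Errfi1, lay wholly above control and none wholly below, where 23.4% of all genes lay above and 17.2% below. The median of the 10 differences was 0.33, beside 0.02 over all genes.

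In TBI+DEIX against control 3 members were called, all higher, where 30.0% of all tested genes were called and 16.9% called higher, so that the share of members called equals that of the whole table. The balance of directions depended on the scaling: of all calls 56.2% were higher in TBI+DEIX and 62.4% in DEIX, against 30.6% and 19.1% after rescaling to TPM. Wholly above control were 5 members (Fkbp5, Nr3c1, Mt1, Mt2 and Errfi1), beside 23.9% of all genes, and the median difference was 0.53, beside 0.02. For the mean of the 3 treated groups 1 member was called, higher, where 20.0% of all genes were called and 11.8% called higher, and 1 lay wholly above control, beside 9.76%. These 4 comparisons share the control libraries. In TBI+DEIX against TBI no member was called (limma), beside 8.1% of all genes. Fkbp5 and Errfi1 had an unadjusted p under 0.05 there, as had 27.2% of all genes. Fkbp5 alone of the 10 lay wholly above TBI, beside 14.5% of all genes, with a difference of 0.90 (adjusted p = 0.104), which was 0.41 without TBI+DEIX replicate 1 (adjusted p = 0.062). In the test of whether the DEIX difference was the same in irradiated and unirradiated marrow, 0.2% of all genes and no member were called (limma). Ddit4 and Tsc22d3 had an unadjusted p under 0.05, as had 7.5% of all genes, with interaction terms of -1.19 (adjusted p = 0.596) and -0.73 (adjusted p = 0.607). Without TBI+DEIX replicate 1 these terms were -1.36 (adjusted p = 0.188) and -0.44 (adjusted p = 0.265).

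Many of these calls were lost without a single library. Leaving out any 1 of the 3 control libraries removed every member call in DEIX, in TBI+DEIX and in the mean of the treated groups, with adjusted p for Fkbp5 between 0.0868 and 0.0908 in DEIX and between 0.0516 and 0.0558 in TBI+DEIX. The Fkbp5 difference itself moved little under these omissions, from 1.44 to 1.49 in DEIX and from 1.16 to 1.21 in TBI+DEIX. Leaving out any 1 DEIX library brought Fkbp5 in DEIX to an adjusted p between 0.0533 and 0.0912. The Errfi1 call in TBI+DEIX was also lost without TBI replicate 2 (adjusted p = 0.0508), TBI+DEIX replicate 2 (0.083) or TBI+DEIX replicate 3 (0.118). TBI+DEIX replicate 1 acted in the other direction. Without it, called members numbered 1 of 10 in TBI, 4 in DEIX, 4 in TBI+DEIX, 6 in the mean of the treated groups and 2 in TBI+DEIX against TBI, while the share of all genes called went to 12.2%, 21.8%, 38.5%, 33.4% and 25.8%. In the same fit the interaction was called for 2 members, beside 3.01% of all genes: Fkbp5 at -1.05 (adjusted p = 0.0165) and Klf9 at -1.69 (adjusted p = 0.0239), against -0.56 (adjusted p = 0.925) and -1.02 (adjusted p = 0.866) with all 12 libraries. Leaving out TBI+DEIX replicate 2 or 3 instead gave -0.30 and -0.33 for Fkbp5 (adjusted p = 0.939 and 0.949) and -0.65 and -0.70 for Klf9 (adjusted p = 0.891 and 0.92). In the fit without replicate 1, TBI+DEIX against TBI was 0.41 for Fkbp5 and -0.22 for Klf9, and DEIX against control was 1.46 and 1.47. The spread within groups, as the root mean square of the SD in log2 over all tested genes but Ngp, S100a8 and S100a9, was lowest among controls (0.14), 0.225 in TBI, 0.236 in DEIX and highest in TBI+DEIX (0.418).

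Within the DEIX group, replicate 2 was the highest library for 8 of the 10 genes, all but Sgk1 and Nr3c1. It held 4.71 times the control mean of Ddit4, 5.53 times that of Klf9 and 3.52 times that of Fkbp5. The same library had the highest erythroid markers of its group, at 6008 FPKM summed against 1233 and 1387. TBI+DEIX replicate 1 was the highest library of its group for 5 genes (Fkbp5, Klf9, Pik3ip1, Ddit4 and Mt1) and the lowest for the other 5. Whether cell composition had a part in these orders was not tested.

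Across the 12 libraries the genes fell into loose sets, described here by Pearson's r of log2(FPKM + 1). The libraries fall into groups that also differ in cell type markers, so these values carry no test. Fkbp5 and Klf9 were at r = 0.93. Klf9 stood at 0.76 with Ddit4 and 0.73 with Pik3ip1. Sgk1 and Errfi1 were at 0.85, Sgk1 and Nr3c1 at 0.71, and Mt1 and Mt2 at 0.82. Tsc22d3 was nearest to Ddit4 (0.62) and at 0.22 with Fkbp5, and Sgk1 and Pik3ip1 ran opposite at -0.65.

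**Figure D3:**
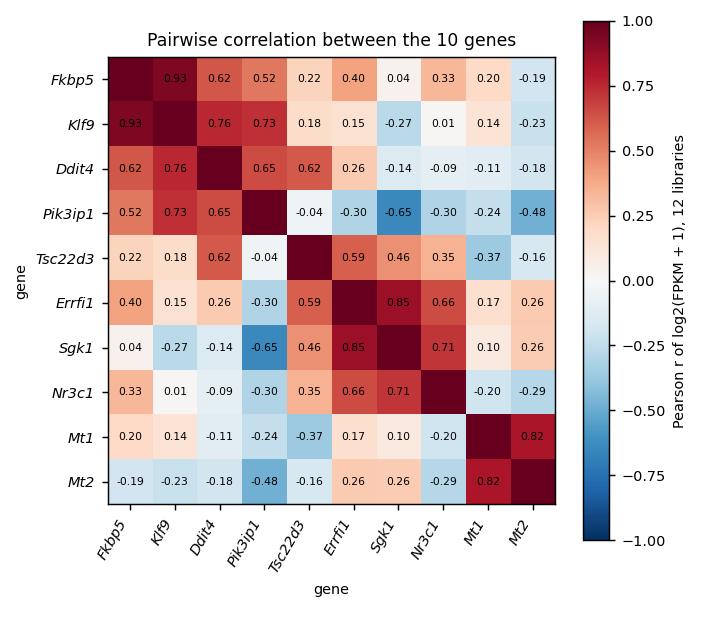
Pearson's r of log2(FPKM + 1) over 12 libraries for each pair of the 10 genes, coloured from -1 (blue) to 1 (red). Fkbp5 with Klf9 (0.93), Sgk1 with Errfi1 (0.85) and Mt1 with Mt2 (0.82) are the pairs with the highest values.

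By the same measure over the 12 libraries, the tested genes outside the list most like Fkbp5 were Klf13 (r = 0.97), Ifngr1 (0.96) and Spata13 (0.96). Klf13, a relative of Klf9, averaged 58.6 FPKM in control marrow and 62.1 in TBI, against 100.9 in TBI+DEIX and 116.3 in DEIX. The interferon gamma receptor gene Ifngr1 averaged 78.8, 79.9, 105.8 and 122.5 in the same order. Nearest to Klf9 were Map3k6 (0.96), Mfsd7a (0.95) and Glul (0.94), the last encoding glutamine synthetase. Nearest to Tsc22d3 were Arhgap26 (0.96), the scavenger receptor gene Msr1 (0.94) and Ap1s2 (0.94), and to Ddit4 Srsf5 (0.89), Dpep2 (0.88) and Lifr (0.87). For Pik3ip1 they were Afap1l1 (0.94), Pdgfrb (0.92) and Rnf215 (0.92). Sgk1 was most like Pdcd10, Mff and Yaf2 (each 0.95), Errfi1 most like Man2b1, Usp53 (each 0.95) and Itgal (0.94), and Nr3c1 most like Phf8 (0.95), Fam107b (0.94) and Morc3 (0.93). Mt1 was nearest to Adrm1 (0.96), Srm (0.94) and Ino80e (0.93), and Mt2 to Bdh1 (0.94), Gdf3 (0.91) and Bex4 (0.90).

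Of 18 genes of receptor machinery, the chaperones, coregulators and steroid enzymes that act with the receptor, 16 were tested. None was called in TBI or in DEIX against control, beside 3.99% and 7.24% of all genes. In TBI+DEIX 2 of the 16 rose, beside 16.9% of all genes called higher: Hsd11b1, the enzyme that regenerates active glucocorticoid inside cells, by 0.92 (adjusted p = 0.0298), and the coactivator Ep300 by 0.51 (adjusted p = 0.0112). Hsd11b1 was at 66.7, 72.8 and 65.5 FPKM in controls and 80.3, 156.7 and 175.0 in TBI+DEIX. DEIX libraries held 122.3, 71.2 and 103.6, and TBI libraries 118.3, 101.7 and 79.4. The most abundant members were the chaperones Hspa8 (604.8 to 643.9 in controls), Hsp90ab1 (491.8 to 561.6) and Hsp90aa1 (176.5 to 196.1). The mineralocorticoid receptor gene Nr3c2 and Hsd11b2, which inactivates glucocorticoid, were under 1 FPKM in every library.

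Of 30 other glucocorticoid targets 28 were tested, and their calls went both ways. In DEIX 3 rose and 3 fell, beside 4.52% and 2.72% of all genes. Those that rose were the clock gene Per1 (1.77, adjusted p = 0.0288), the decoy interleukin-1 receptor gene Il1r2 (1.76, adjusted p = 0.0168) and the leukotriene pathway gene Alox5ap (0.86, adjusted p = 0.0313). Those that fell were Foxo1 (-1.15, adjusted p = 0.0476) and Il7r (-1.43, adjusted p = 0.0496), which B cell precursors express, and the efferocytosis receptor gene Mertk (-0.77, adjusted p = 0.0298). Per1 was at 8.19, 5.94 and 5.57 FPKM in controls, 12.6, 10.1 and 6.65 in TBI, 26.6, 9.20 and 9.97 in TBI+DEIX, and 21.5, 41.1 and 16.4 in DEIX. Like Fkbp5 and Klf9, its highest value within TBI+DEIX was in replicate 1 and within DEIX in replicate 2. Leaving out any 1 control library removed all 6 calls, and leaving out TBI+DEIX replicate 1 gave 13 of 28, beside 21.8% of all genes called in that fit. The median difference over the 28 was 0.10, beside 0.02 over all genes.

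Il1r2 was at 33.9, 36.6 and 33.6 FPKM in controls, 47.8, 33.0 and 33.1 in TBI, 348.8, 117.8 and 117.9 in TBI+DEIX, and 146.4, 114.2 and 103.2 in DEIX. Every library given DEIX was thus above every library that was not. In TBI+DEIX against control 5 of the 28 rose and 3 fell, beside 16.9% and 13.1% of all genes. Il1r2 rose by 2.25 (adjusted p = 0.00111), Alox5ap by 1.17 (adjusted p = 0.00205), the annexin gene Anxa1 by 1.15 (adjusted p = 0.00432), the insulin receptor substrate gene Irs2 by 0.79 (adjusted p = 0.0062) and the transcription factor gene Cebpb by 0.60 (adjusted p = 0.0319). Foxo1 fell by 1.54 (adjusted p = 0.00413), Il7r by 1.77 (adjusted p = 0.00652) and the stress sensor gene Sesn1 by 0.91 (adjusted p = 0.0029). Against TBI, Il1r2 (2.15, adjusted p = 0.0146) and Alox5ap (0.98, adjusted p = 0.0211) rose in TBI+DEIX. Both of these calls were lost without TBI replicate 3 (adjusted p = 0.0849 and 0.109), that of Alox5ap also without TBI replicate 2 (0.06) or TBI+DEIX replicate 3 (0.073), and 10 of the 28 were called without TBI+DEIX replicate 1, beside 25.8% of all genes. In TBI against control 1 of the 28 was called, Il7r, which fell by 1.55 (adjusted p = 0.0492), beside 3.1% of all genes called lower. That call was lost under most alternatives, among them leaving out TBI replicate 1, which gave -1.01 (adjusted p = 0.079). Anxa1 (1029 to 1123 FPKM in controls), Alox5ap (301.5 to 396.3) and the chemokine receptor gene Cxcr4 (270.0 to 296.9) were the most abundant of these targets, and Cxcr4 was not called in any comparison.

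Of 7 metal response genes 5 were tested beside Mt1 and Mt2. Mtf1, the zinc sensor that switches on the metallothioneins, rose by 0.43 in TBI+DEIX (adjusted p = 0.00861), and the heme oxygenase gene Hmox1 rose by 0.56 against control (adjusted p = 0.0452) and 0.78 against TBI (adjusted p = 0.0353). Called higher in TBI+DEIX were thus 2 of the 5 against control, beside 16.9% of all genes. Against TBI it was 1 of the 5, where 8.1% of all genes were called in either direction. Mtf1 was at 7.27, 6.90 and 6.98 FPKM in controls, 9.91, 8.51 and 9.94 in TBI, 9.97, 10.3 and 9.32 in TBI+DEIX, and 8.85, 7.16 and 8.19 in DEIX. Its irradiated libraries lay above every control, as those of Mt1 did. None of the 5 was called in TBI or DEIX, beside 3.99% and 7.24% of all genes, and the zinc exporter gene Slc30a1 (4.91 to 5.58 in controls) was not called. Mt3 stayed under 1 FPKM in every library and Mt4 was listed at 0 in all 12.

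Of 11 paralogs of the members 9 were tested. In DEIX Klf13 rose by 0.97 (adjusted p = 0.0303) and Klf6 by 0.67 (adjusted p = 0.00813), and Tsc22d1 fell by 1.16 (adjusted p = 0.0155). Those were 2 of the 9 called higher and 1 lower, beside 4.52% and 2.72% of all genes. In TBI+DEIX against control Klf13 (0.73, adjusted p = 0.0325), Klf6 (0.85, adjusted p = 0.000512) and Tsc22d4 (0.43, adjusted p = 0.0295) rose. Tsc22d1 fell by 1.71 (adjusted p = 0.000512), Klf4 by 1.16 (adjusted p = 0.00456) and Fkbp1a by 0.49 (adjusted p = 0.0146). That made 3 of the 9 called higher and 3 lower, beside 16.9% and 13.1% of all genes. Tsc22d1 and its paralog Tsc22d3 thus lay on opposite sides of control in DEIX, with at most 13.7 FPKM of Tsc22d1 in any DEIX library and at least 27.1 in every control. Against TBI, Klf6 rose by 0.58 (adjusted p = 0.0196) and Tsc22d1 fell by 0.93 (adjusted p = 0.0347) in TBI+DEIX, as did Klf4 by 0.89 (adjusted p = 0.0434). Of the 9 this was 1 higher and 2 lower, where 8.1% of all genes were called in either direction. Tsc22d4 and Fkbp8 were the most abundant of these paralogs, and Fkbp8 was not called. Across the 4 lists, 18 of 58 tested genes (31.0%) were called in TBI+DEIX against control, beside 30.0% of all genes, and 12 of them were called whichever single library was left out: Il1r2, Alox5ap, Anxa1, Irs2, Foxo1, Il7r, Sesn1, Ep300, Mtf1, Klf6, Klf4 and Tsc22d1. Irs2, Ep300 and Mtf1 still lost the call under 2 other settings of the fit each, with adjusted p up to 0.0972, 0.225 and 0.318. Hsd11b1, Cebpb, Hmox1, Klf13, Tsc22d4 and Fkbp1a each lost the call without at least 1 control library, and all of these but Fkbp1a also without at least 1 TBI+DEIX library. Without TBI+DEIX replicate 1 the adjusted p was 0.071 for Cebpb, 0.0951 for Hmox1, 0.0574 for Klf13 and 0.0515 for Tsc22d4, and the Klf13 difference was 0.45. In DEIX 9 of the 58 (15.5%) were called, beside 7.24% of all genes, and in TBI+DEIX against TBI 6 (10.3%), beside 8.1%. None of these was called under all 12 omissions. In DEIX each of the 9 was lost without control replicate 2, and in TBI+DEIX against TBI each of the 6 was lost without TBI replicate 3.

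**Figure D4:**
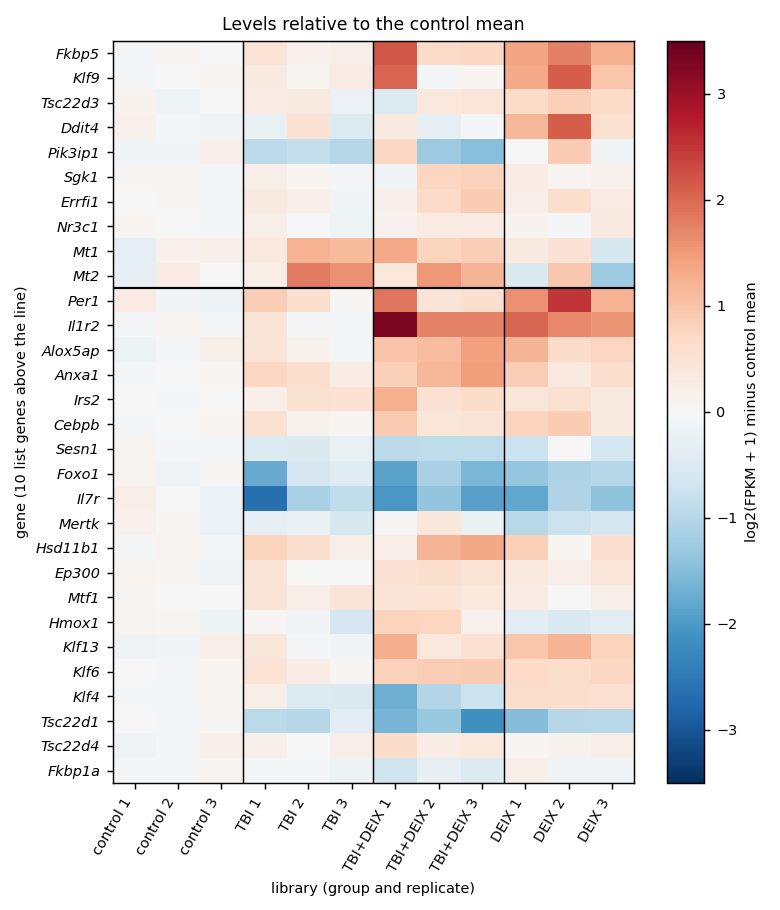
Level of each gene relative to its control mean, in log2(FPKM + 1), in the 12 libraries: above the line the 10 genes, below it the genes of the other lists that were called. Fkbp5, Klf9 and Per1 are reddest in TBI+DEIX replicate 1 and DEIX replicate 2, Il1r2 is red in all 6 libraries given DEIX, and Mt1 and Mt2 are red in most irradiated libraries.

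Markers of several cell types moved with the groups, and cell shares were not measured. The 14 B lineage markers summed to 604 to 741.2 FPKM in controls, 36.7 to 451.6 in TBI, 9.92 to 240.1 in TBI+DEIX and 85.8 to 129.7 in DEIX, and 4, 12 and 4 of the 14 were called lower in TBI, TBI+DEIX and DEIX, beside 3.1%, 13.1% and 2.72% of all genes. Of these markers Fcmr was at 0 in TBI+DEIX replicate 1. The 10 monocyte and macrophage markers summed to 528.8 to 624.3 in controls, 412.9 to 700.5 in TBI, 339.5 to 570.2 in TBI+DEIX and 935.8 to 1029 in DEIX, with 3 of 10 called higher and 1 lower in DEIX, beside 4.52% and 2.72% of all genes, and 1 higher and 1 lower in each of TBI and TBI+DEIX. The 12 erythroid markers ranged from 2934 to 4497 in controls, 1734 to 6392 in TBI, 359.1 to 1535 in TBI+DEIX and 1233 to 6008 in DEIX, with 7 called lower in TBI+DEIX, beside 13.1% of all genes. Of 10 maturing neutrophil markers 4 were called higher in TBI+DEIX, beside 16.9% of all genes, and none in TBI or DEIX. Without TBI+DEIX replicate 1 the TBI+DEIX calls were 9 of 14 lower for B lineage, 2 of 12 lower for erythroid and 9 of 10 higher for neutrophil markers, where 38.5% of all genes were called in either direction. In DEIX that fit called 14 of 14 B lineage markers lower, 5 of 10 neutrophil markers higher, and 6 monocyte and macrophage markers higher and 3 lower, beside 21.8% of all genes. In TBI it called 5 B lineage markers lower, 1 neutrophil marker higher, and 1 monocyte and macrophage marker higher and 1 lower, beside 12.2%. The 5 megakaryocyte markers summed to 103.8 to 159.9 in controls, 23.1 to 43.4 in TBI, 21.0 to 38.1 in TBI+DEIX and 58.1 to 97.7 in DEIX, with 3, 4 and 0 called lower. Stroma and endothelium markers, 4 tested of 7, summed to 14.5 to 19.5 in controls, 14.2 to 35.1 in TBI, 12.8 to 20.1 in TBI+DEIX and 4.17 to 7.21 in DEIX, with 1 called higher in TBI and 1 lower in each of TBI+DEIX and DEIX. T and NK markers, 10 tested of 11, summed to 213.4 to 284.3 in controls, 125.5 to 168.3 in TBI, 74.2 to 216 in TBI+DEIX and 179.9 to 226.3 in DEIX, with 2, 3 and 1 called lower in TBI, TBI+DEIX and DEIX. Without TBI+DEIX replicate 1 these T and NK calls were 8, 3 and 4 of 10 lower in the same order, and the megakaryocyte calls 4, 4 and 0 of 5 lower. For stroma and endothelium that fit called 2 of 4 higher in TBI, none in TBI+DEIX and 2 lower in DEIX. The 4 eosinophil, basophil and mast cell markers summed to 208 to 251 in controls, 83.2 to 179.7 in TBI, 107.7 to 209.1 in TBI+DEIX and 130.2 to 182.2 in DEIX. Called lower were 0, 1 and 1 in TBI, TBI+DEIX and DEIX, and 0, 1 and 2 without TBI+DEIX replicate 1. The 4 promyelocyte markers summed to 2749 to 3901, 1805 to 3517, 1704 to 2953 and 3012 to 4820 over control, TBI, TBI+DEIX and DEIX. Of these 0, 1 and 0 were called lower, and 0, 2 and 0 in that fit. The part of these shifts in the levels of Fkbp5, Klf9, Tsc22d3, Ddit4 and the other members was not tested.

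**Figure D5:**
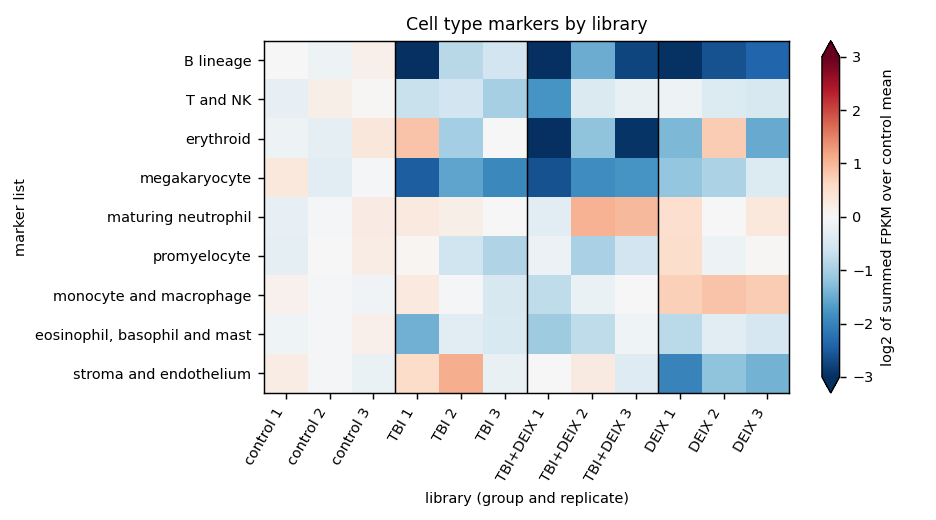
Summed FPKM of 9 lists of cell type markers in each library, as the log2 ratio to the control mean, with colours ending at -3 and 3. B lineage markers are below control in all 9 treated libraries, and monocyte and macrophage markers are above it in the 3 DEIX libraries.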

How the data were processed

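RNA of whole bone marrow was sequenced from a directional messenger RNA kit, per the labels' protocols. The submitters' processing notes name STAR 2.6, Cufflinks 2.2.1 and the mm10 build. The authors deposited FPKM for 21853 genes, and all identifiers matched GENCODE vM21, which gave symbols and GRCm38 coordinates. A count model needs counts, which FPKM does not give. Genes at 1 FPKM or more in at least 3 libraries were kept (10994), and log2(FPKM + 1) was fitted as 4 group means over 12 libraries with limma 3.58.1 (trend) in R 4.3.3, with calls at p under 0.05 after Benjamini-Hochberg adjustment. The fit was run on simulated data with the same spread in all groups, which does not test it under the unequal spreads seen here. Alternatives were another pseudocount, filters, scalings, weights, a replicate block, fewer groups and leaving out each library. The text names the 10 members, the 3 genes most like each by Pearson's r, and list genes that were called or among the 3 most abundant. It also names some list genes that stayed under 1 FPKM in every library. The members and lists were chosen with earlier results of these data known. Ngp, S100a8 and S100a9, listed at 0 in 2 to 5 libraries and very high in others, were read as failed estimates. Promoter sequences are from RefSeq (GRCm38.p6).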

Additional observations from a re-analysis of the deposited data

How the results depend on the processing

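Counts of called members moved with the setting. With only the groups compared in the fit they were 1 in TBI, 4 in DEIX (Fkbp5, Tsc22d3, Klf9 and Ddit4) and 1 in TBI+DEIX against control (Mt1), where 12.9%, 18.7% and 19.8% of all genes were called. Rescaling to TPM gave 0 in DEIX, TBI+DEIX and the mean of the treated groups, beside 2.57%, 16.2% and 8.8% of all genes, turned Nr3c1 in DEIX to -0.016, shifted the median of all genes in DEIX from 0.02 to -0.12, and in TBI+DEIX against TBI from 0.00 to -0.12, and took the share of calls that were higher from 62.4% to 19.1% in DEIX, 56.2% to 30.6% in TBI+DEIX, 58.6% to 26.5% in the mean, 22.3% to 9.49% in TBI, 57.9% to 34.4% in TBI+DEIX against TBI and 95.5% to 82.1% in the interaction. Among others, rescaling to TPM also turned Mt1 in DEIX from 0.09 to -0.06 and Tsc22d3 in TBI+DEIX from 0.10 to -0.02. Sgk1 in DEIX went from 0.17 to 0.03 and Nr3c1 in TBI+DEIX from 0.24 to 0.12. TPM without the 3 failed genes, added after seeing the data, gave 1 in TBI+DEIX and 0 in the mean, and 1 in DEIX, there Tsc22d3 and not Fkbp5, beside 23.2%, 13.9% and 4.12% of all genes, with 45.7% of DEIX and 38.3% of TBI+DEIX calls higher. Array weights, which gave control replicate 2 a weight of 97.5, called 6, 7, 8, 10, 5 and 5 members in TBI, DEIX, TBI+DEIX, the mean, TBI+DEIX against TBI and the interaction, beside 63.8%, 47.7%, 62.5%, 71.2%, 50.3% and 10.4% of all genes. Leaving out 1 library at a time gave 0 to 1, 0 to 4, 0 to 4, 0 to 6, 0 to 2 and 0 to 2 in the same order. With the replicate number as a block, DEIX had 2 called members, Fkbp5 and Ddit4 (adjusted p = 0.03 and 0.0493), and TBI+DEIX 3, beside 5.82% and 27.3% of all genes. In that fit 474 genes in place of 891 were called in TBI+DEIX against TBI. Deviations of same-numbered libraries of 2 groups from their group means were at r from -0.45 to 0.24, and not every library correlated best with its own number. With 3 libraries per group these values cannot exclude a pairing, and whether the numbers pair the samples is unknown. Over the whole table, calls ranged from 134 to 7017 in TBI (439 in the fit reported), 146 to 5249 in DEIX (796), 1785 to 6866 in TBI+DEIX (3299), 769 to 7823 in the mean (2204), 0 to 5532 in TBI+DEIX against TBI (891) and 4 to 1148 in the interaction (22), the highest values with array weights. The direction of Fkbp5 in DEIX and TBI+DEIX held in every alternative run. FPKM without counts limits what can be said of low genes such as Errfi1 and Klf9.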
